A study of Mus musculus with 12 samples.

Results

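The baseline difference between the genotype labels was examined in 6 mouse livers that had received vehicle and no acetaminophen (APAP), 3 from wild-type (WT) mice and 3 from mice labelled *Gna12* knockout (KO). They were chosen by the treatment and genotype labels from a series of 12 livers, whose other 6 came from APAP-treated mice of the same genotype labels. All 12 mice carried the strain label C57BL/6 and an age of 10 to 12 weeks, and the study's methods describe male KO mice and age-matched WT littermates fasted overnight. How the deletion was made is not given in the sources used here. Each replicate was a separate liver.

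*Gna12* encodes the alpha subunit of the G12 class of heterotrimeric G proteins. Receptors for lysophosphatidic acid, sphingosine-1-phosphate, thrombin and angiotensin can activate this class, which acts through guanine nucleotide exchange factors and the kinases ROCK1 and ROCK2 on the actin cytoskeleton and on transcription through SRF and YAP. In liver, stellate cells and hepatocytes express these receptors. Bulk liver RNA is mostly hepatocyte RNA, and a lower level of a transcript of a minor cell type can come from fewer such cells or from less RNA per cell, which cannot be told apart here.

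Between 49737950 and 53487025 reads were counted on genes per vehicle liver, and mitochondrially encoded transcripts took 6.99% to 9.47% of them. Transcript levels are given as CPM (read counts scaled to a common library size) after TMM scaling over the 6 vehicle livers, and differences as log2 fold changes, KO label minus WT label. The summed level of 10 hepatocyte markers was 69806 to 92962 CPM in WT livers and 77181 to 96330 CPM in livers labelled KO, so all 6 had the profile of liver tissue. On the 500 most variable genes, WT replicate 2 stood apart from the other 5 livers on the first principal component, which held 38.01% of the variance. Its distance to the other livers was 60.4 to 66.0 on the log2 CPM scale, whereas all distances among the other 5 livers lay between 40.8 and 52.8. The main results that rest on that liver are therefore given with and without it. Other single genes and list counts are given with all 6 livers unless stated, and some of them also depend on that liver.

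The targeted gene did not separate the labels. *Gna12* (gene ID 14673, chromosome 5 from 140759944 to 140830431 in GRCm38) was measured at 65.6, 34.2 and 62.3 CPM in WT replicates 1, 2 and 3, and at 66.5, 65.3 and 53.6 CPM in the livers labelled KO. The lowest value belonged to a WT liver, and the groups overlapped. The log2 fold change was 0.19 with an SE of 0.24 (adjusted p = 0.878, edgeR), and without WT replicate 2 it was -0.04. A whole-gene count does not show whether part of the transcript is missing, and the deleted part is not given in the sources used here. The study describes its own checks of the genotype, by PCR of tail DNA and by qRT-PCR and immunoblots of liver. Whether these covered the sequenced livers is not given in the sources used here. Since the count does not check the label, the groups are called by their labels throughout.

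Very few genes passed the test between the labels. Of 15262 genes tested with edgeR's quasi-likelihood test and the Benjamini-Hochberg adjustment, 4 passed an adjusted p of 0.05, which is 0.0262% of the genes tested. The 2 that rose under the KO label were a long noncoding RNA and an alcohol dehydrogenase pseudogene, and the 2 that fell were a cytochrome P450 and another pseudogene. The median log2 fold change of all tested genes was 0.01. Before adjustment, 658 genes (4.31%) were higher and 496 (3.25%) lower at p under 0.05. The study's own cut asks for an unadjusted p under 0.05 and a 1.5-fold difference, and by it 487 genes (3.19%) lay higher and 265 (1.74%) lower. With the study's own test, which was run on log2 TPM after quantile normalization, the same cut gave 78 and 68. The 3 values of one label all lay above those of the other for 1123 genes (7.36%) that were higher and 1010 genes (6.62%) that were lower under the KO label. An exact permutation test of 3 livers against 3 cannot give a p below 0.10, so no such test was used for single genes.

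*E130102H24Rik* (gene ID 77866, chromosome 4 from 101346524 to 101356248), a long noncoding RNA gene, had 0 counts in each WT vehicle liver. It had 318, 373 and 358 counts in livers labelled KO replicates 1, 2 and 3, or 5.29, 7.12 and 7.76 CPM. Taking a floor of 3 counts in each WT liver, it was at least 114-fold higher under the KO label (edgeR's adjusted p = 0.00712). The RefSeq annotation places 0610043K17Rik and the microRNA gene Mir101a in the same interval, and whether the counting used the strand is not given in the sources used here. *Adh6-ps1* (gene ID 639769, chromosome 3 from 138374121 to 138388291), a transcribed pseudogene of the alcohol dehydrogenase family, stood at 1.35, 1.36 and 1.77 CPM in WT livers. Its 3 values under the KO label were 12.0, 7.96 and 8.13 CPM, a log2 fold change of 2.65 (SE 0.24, edgeR's adjusted p = 0.0197). Both genes separated the labels without overlap, which was a condition for naming them.

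*Cyp2a4* (gene ID 13086, chromosome 7 from 26307192 to 26315088) encodes a steroid 15-alpha-hydroxylase that is typically higher in female than in male mouse liver. WT livers had 130, 114 and 203 CPM, and livers labelled KO had 10.3, 7.44 and 8.76 CPM. The WT mean was 149 ± 47.6 CPM and the mean under the KO label 8.83 ± 1.43 CPM (SD, n = 3 each), and the gene fell by 4.08 on the log2 scale (SE 0.26, edgeR's adjusted p = 0.00667). The nearly identical neighbouring gene *Cyp2a5*, which shares 98.2% of 1739 transcript bases with *Cyp2a4*, was measured at 918, 959 and 588 CPM in WT livers. Under the KO label it was at 665, 604 and 618 CPM and did not pass the test (log2 fold change -0.39, edgeR's adjusted p = 0.732). Reads that fit both genes can be assigned to either, so the split between them depends on the counting. *Gm16439* (gene ID 100042570, chromosome 14 from 44596654 to 44598270) is a pseudogene whose transcript is similar to that of *Bnip3*. It fell from 10.6, 13.8 and 10.3 CPM to 0.93, 0.74 and 1.37 CPM (log2 fold change -3.52, SE 0.27, edgeR's adjusted p = 0.00712). Another pseudogene of the same part of chromosome 14 that resembles *Bnip3*, *Gm6532*, was at 12.9, 13.7 and 11.4 CPM against 6.08, 4.87 and 5.79 CPM without passing (adjusted p = 0.0940 by edgeR).

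These 4 calls depended on both livers labelled KO that carried replicate numbers 2 and 3. With edgeR's quasi-likelihood test, 0 genes passed without KO replicate 2 and 0 without KO replicate 3, where 941 and 848 genes had an unadjusted p under 0.05. Between 5 and 16 passed when any of the other 4 livers was left out. DESeq2's Wald test on the same 6 livers called 137 genes, all 4 among them.

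**Figure D1:**
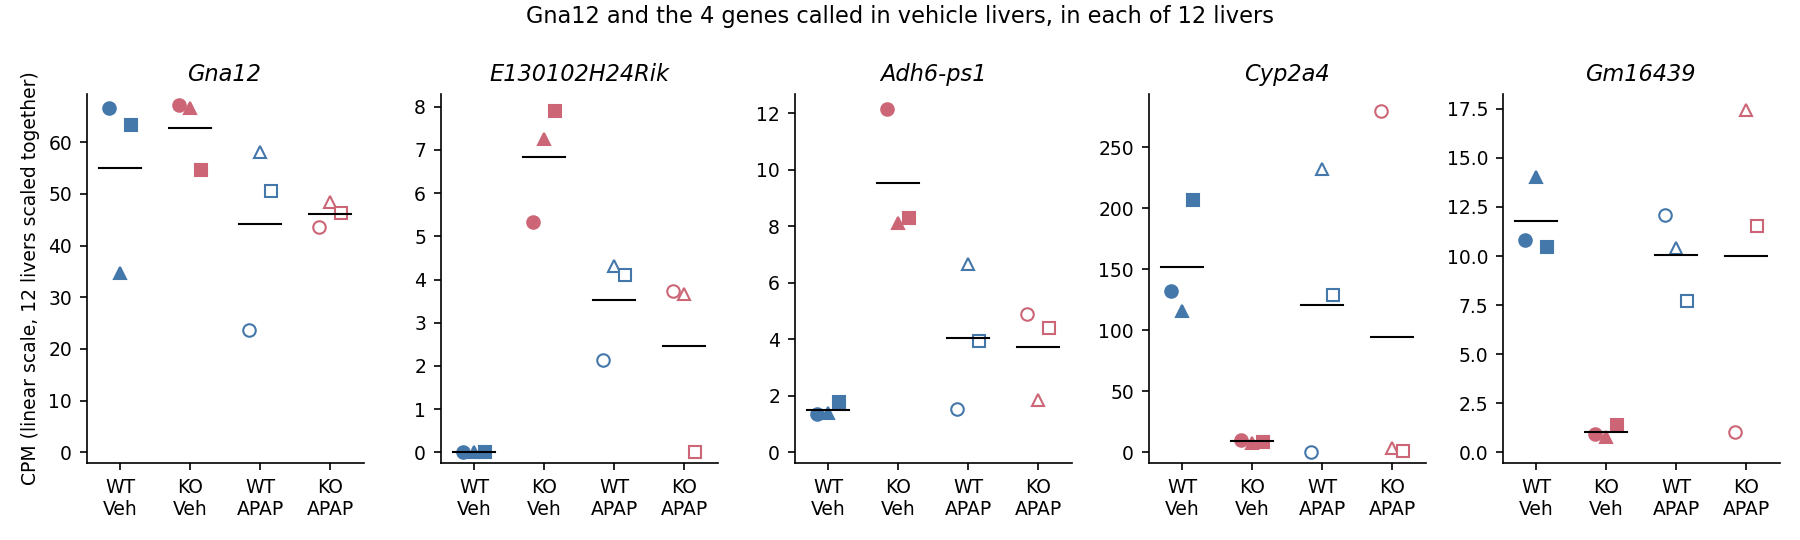
Levels of *Gna12* and of the 4 genes that passed the test in vehicle livers (CPM, linear axis, the 12 livers scaled together). Circles, triangles and squares are replicates 1, 2 and 3, filled for vehicle and open for APAP, and the bar is the mean of 3. The vehicle livers separate by label for the 4 genes and not for *Gna12*, whereas the APAP livers of each label spread widely for *Cyp2a4*.

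The levels of these 4 genes in the APAP livers, which share no sample with the vehicle livers, varied within each label. On a common scale over 12 livers, *Cyp2a4* was at 0.68, 232 and 129 CPM in WT APAP replicates 1, 2 and 3, and at 280, 3.39 and 1.12 CPM in APAP livers labelled KO. *Gm16439* was at 12.1, 10.4 and 7.70 CPM in WT APAP livers, but at 1.01, 17.4 and 11.5 CPM under the KO label. So 1 APAP liver labelled KO had the low level of the KO vehicle livers and the other 2 had the level of WT. *E130102H24Rik* was detected in all WT APAP livers (2.15, 4.32 and 4.103 CPM) and in 2 of 3 APAP livers labelled KO (3.74, 3.66 and 0 CPM). *Adh6-ps1* was at 1.55, 6.67 and 3.94 CPM in WT APAP livers and at 4.91, 1.87 and 4.38 CPM under the KO label. For each of the 4 genes the APAP groups overlapped, and 0 of them passed in the APAP comparison, where 5 of 16174 genes (0.0309%) did.

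Outside these calls, the clearest common direction was in genes induced by interferons. Type I interferons signal through a receptor that leads to transcription from interferon-stimulated response elements (ISRE). Interferon-gamma acts through gamma-activated sites (GAS) and induces guanylate-binding and immunity-related GTPases and the antigen presentation machinery. Of 26 tested type I interferon response genes, 24 were higher under the KO label, and 22 of them at an unadjusted p under 0.05, against 4.31% of all genes. For 19 of the 26 the labels were fully separated, beside 7.36% of all genes. The median log2 fold change was 0.98, against 0.01 for all genes. None of the 26 passed the adjustment with edgeR (smallest adjusted p = 0.125), whereas DESeq2's Wald test called 7 of them. Leaving out each liver in turn kept 15 to 23 genes at an unadjusted p under 0.05 and medians of 0.68 to 1.09.

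Promoters of the leading interferon genes are shown because the ISRE and GAS sequences are the sites through which this class is known to be induced. They are 300-base windows around the transcription start from RefSeq (GRCm38.p6), read along the strand of the gene, of the named members that had an entry: *Xaf1* (chr11:72301379-72301678, plus strand), *Irf7* (chr7:141266375-141266674, minus strand), *Tgtp1* (chr11:48992197-48992496, minus strand) and *Tgtp2* (chr11:49064163-49064462, minus strand). Capitals mark matches to the ISRE core GAAANNGAAA on either strand and to the GAS motif TTCNNNGAA, which reads the same on both strands.
Xaf1: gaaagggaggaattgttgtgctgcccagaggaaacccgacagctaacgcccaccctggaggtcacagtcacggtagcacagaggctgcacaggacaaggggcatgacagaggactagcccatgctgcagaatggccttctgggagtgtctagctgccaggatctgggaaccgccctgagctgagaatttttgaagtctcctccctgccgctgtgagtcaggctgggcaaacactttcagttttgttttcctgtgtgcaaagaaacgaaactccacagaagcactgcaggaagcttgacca
Irf7: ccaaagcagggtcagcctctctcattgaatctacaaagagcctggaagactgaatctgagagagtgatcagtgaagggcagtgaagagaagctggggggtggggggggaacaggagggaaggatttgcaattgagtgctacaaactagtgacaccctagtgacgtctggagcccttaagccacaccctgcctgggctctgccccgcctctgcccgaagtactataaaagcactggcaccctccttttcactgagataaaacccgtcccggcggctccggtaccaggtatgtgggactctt
Tgtp1: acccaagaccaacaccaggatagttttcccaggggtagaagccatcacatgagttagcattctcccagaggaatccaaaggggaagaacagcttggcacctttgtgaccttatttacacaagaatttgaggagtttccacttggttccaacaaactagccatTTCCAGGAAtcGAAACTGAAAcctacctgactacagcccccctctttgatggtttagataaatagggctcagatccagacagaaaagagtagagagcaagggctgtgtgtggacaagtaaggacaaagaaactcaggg
Tgtp2: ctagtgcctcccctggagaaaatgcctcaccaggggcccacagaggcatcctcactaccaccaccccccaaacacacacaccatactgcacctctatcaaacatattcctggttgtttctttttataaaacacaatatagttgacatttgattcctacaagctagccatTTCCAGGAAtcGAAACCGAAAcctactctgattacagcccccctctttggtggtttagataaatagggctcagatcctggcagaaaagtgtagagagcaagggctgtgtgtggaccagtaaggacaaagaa
The *Tgtp1* and *Tgtp2* windows each held 1 match to each motif, side by side, and the *Xaf1* and *Irf7* windows held none of these letters. Of the 32851 windows of the same length, 3.44% held the ISRE core and 8.30% the GAS motif. Among type I interferon genes with an entry, 10 of 17 held the ISRE core and 3 the GAS motif. Among the interferon-gamma genes described next, 9 of 16 held the ISRE core and 6 the GAS motif.

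*Xaf1*, which encodes an interferon-induced antagonist of the apoptosis inhibitor XIAP, was at 5.21, 5.12 and 6.17 CPM in WT livers and at 11.7, 11.03 and 14.98 CPM under the KO label. Its log2 fold change was 1.19 (SE 0.17, edgeR's adjusted p = 0.125). *Irf7*, the factor that amplifies type I interferon production, was at 10.6, 13.3 and 14.6 CPM against 19, 24.3 and 30.4 CPM. Both genes separated the labels, and the summed level of the 26 genes was 259, 311 and 297 CPM in WT livers and 383, 413 and 542 CPM under the KO label. KO replicate 3 had the highest sum.

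The interferon-gamma GTPases and antigen presentation genes had the same direction. All 21 tested were higher under the KO label, 16 of them at an unadjusted p under 0.05 (4.31% of all genes) and 15 without overlap (7.36% of all genes), with a median log2 fold change of 1.02. None passed the adjustment with edgeR (smallest adjusted p = 0.0940), whereas DESeq2's Wald test called 10, and leaving out 1 liver at a time gave 13 to 18 genes and medians from 0.67 to 1.27. *Gbp6*, a guanylate-binding GTPase of cell-autonomous defence, was at 3.95, 3.28 and 4.70 CPM in WT livers and at 16.3, 9.88 and 13.8 CPM under the KO label. Its neighbour *Gbp10*, which was not on the list, was at 2.64, 1.90 and 2.48 CPM against 11.02, 6.51 and 8.63 CPM. *Tgtp1*, a T cell specific GTPase of the immunity-related family, was at 1.66, 1.80 and 1.87 CPM against 6.96, 4.25 and 6.74 CPM. Its copy *Tgtp2* was at 1.33, 1.44 and 1.57 CPM against 5.20, 3.51 and 5.07 CPM. *Tgtp1* and *Tgtp2* share 99.8% of 2811 transcript bases, and *Gbp6* and *Gbp10* also have near-identical partners, so each pair is not independent evidence.

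The class II antigen presentation genes were named after their values were seen. *H2-Ab1* was at 4.91, 4.21 and 3.99 CPM in WT livers and 22.01, 9.71 and 10.3 CPM under the KO label, and *H2-Aa* at 9.11, 7.57 and 7.15 CPM against 29.8, 14.98 and 16.4 CPM. KO replicate 1 was the highest for both, whereas KO replicate 3 was the highest for the type I interferon sum. The class I genes *H2-K1* and *H2-D1* had log2 fold changes of 0.02 each.

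Markers of immune cells that express these genes were measured beside them. T and NK cell markers summed to 1.99 to 2.46 CPM in WT livers and to 3.15 to 8.30 CPM under the KO label. Of 7 tested T and NK cell markers 6 were higher (median 1.17), 2 of them at an unadjusted p under 0.05 (4.31% of all genes). *Nkg7*, a cytotoxic granule gene, was at 0.17, 0.06 and 0 CPM against 0.40, 0.27 and 0.95 CPM, and *Cd3e*, a T cell receptor subunit, at 0.22, 0.14 and 0.16 CPM against 0.55, 0.23 and 0.41 CPM. Kupffer cell markers summed to 129 to 195 CPM in WT livers and 166 to 271 CPM under the KO label, and 9 of 10 were higher with 0 at an unadjusted p under 0.05 (median 0.38). B and plasma cell markers ranged from 5.61 to 14.3 CPM against 6.79 to 14.99 CPM. Monocyte markers ranged from 1138 to 2752 CPM against 1096 to 1744 CPM, and neutrophil markers from 1.22 to 19.4 CPM against 1.45 to 2.53 CPM. The highest sum of both was that of WT replicate 2. WT replicates 1 and 3 were at 1138 and 1225 CPM for monocyte and 1.92 and 1.22 CPM for neutrophil markers. Of 4 tested monocyte markers 3 were higher, with 0 at an unadjusted p under 0.05 (median 0.71), and *Fn1* was lower (log2 fold change -0.27). The median level of the tested monocyte markers was only 0.57 to 1.46 log2 CPM in WT livers and 1.18 to 1.72 under the KO label. The monocyte sum was therefore carried by few genes and does not stand for the list as a whole. Both tested neutrophil markers were lower (median -1.76). Of the neutrophil markers, 2 of 12 had 0 counts in all 6 livers. The part of these cells in the interferon values was not tested.

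**Figure D2:**
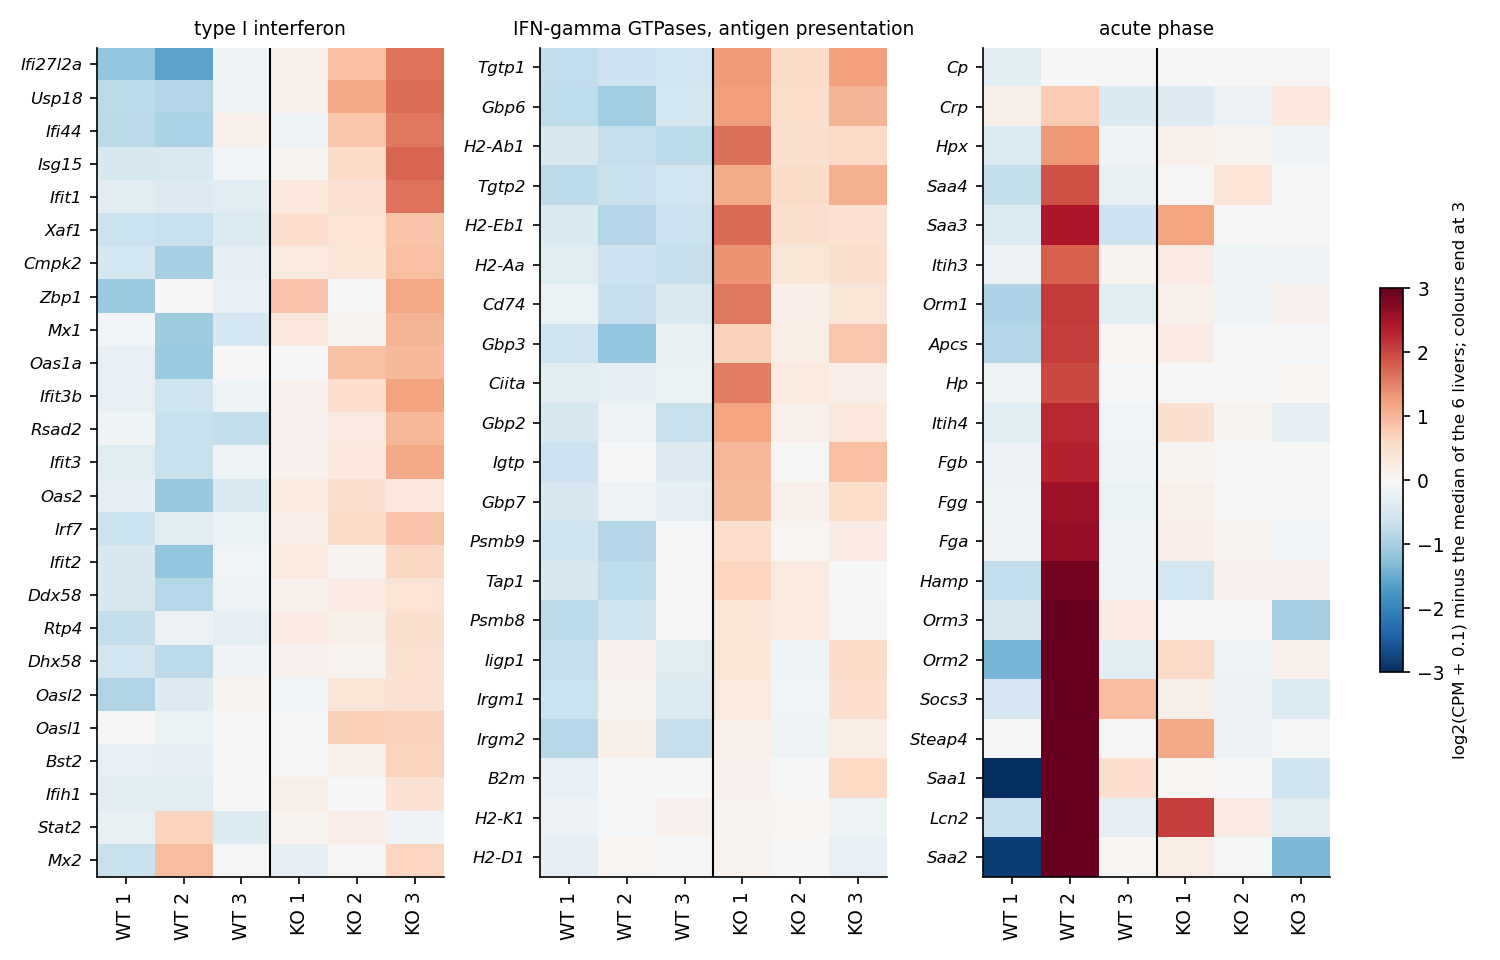
Level of members of 3 gene lists in each vehicle liver, as log2(CPM + 0.1) minus the median of the 6 livers, with colours ending at 3 in either direction. The interferon genes are higher in the 3 livers labelled KO, with KO 3 highest for type I genes and KO 1 for class II genes, whereas the acute phase genes are high in WT 2 alone.

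The lower level of acute phase genes under the KO label rested on 1 WT liver. Acute phase proteins are plasma proteins that hepatocytes make in response to interleukin-6 and interleukin-1. Of 21 tested, 20 were lower, 5 at an unadjusted p under 0.05 (3.25% of all genes were lower), none passed the adjustment, and 0 separated the labels. *Saa1*, a serum amyloid A gene, was at 6.69, 4714 and 85.2 CPM in WT replicates 1, 2 and 3, and at 62.1, 57.6 and 39.7 CPM under the KO label. *Saa2* was at 1.90, 3932 and 14.6 CPM against 16.6, 13.7 and 5.46 CPM, and *Socs3*, the feedback inhibitor of interleukin-6 signalling, at 5.63, 123 and 15.3 CPM against 9.11, 7.06 and 6.03 CPM. Outside the naming rule, *Lcn2*, an iron-siderophore carrier, was at 1.92, 941 and 2.61 CPM against 13.7, 3.80 and 2.45 CPM. The median log2 fold change of the list was -1.14 with all 6 livers and 0.29 without WT replicate 2, where 4 genes were higher and 0 lower at an unadjusted p under 0.05.

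Other genes shared the high value of WT replicate 2. The metallothioneins *Mt1* and *Mt2*, which bind zinc, were at 2251 and 2087 CPM there against 152 and 88.1 CPM in WT replicate 1. The neutrophil chemokine gene *Cxcl1* was at 3.16, 264 and 2.36 CPM in WT livers and at 6.28, 3.09 and 2.99 CPM under the KO label. *Nfil3*, a basic leucine zipper repressor of the clock, was at 18.8, 94.3 and 12.6 CPM against 6.80, 11.9 and 13.01 CPM. *Xbp1*, the transcription factor of the unfolded protein response, was at 121, 573 and 142 CPM against 147, 125 and 121 CPM. None of these genes passed the test, and without WT replicate 2 the log2 fold changes were 0.66 for *Mt1*, 0.55 for *Mt2*, 0.59 for *Cxcl1*, -0.56 for *Nfil3* and 0.0014 for *Xbp1*.

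Immediate early genes, which are transcribed within minutes of a stimulus, were also mostly lower under the KO label. Of 20 tested, 17 were lower, 11 at an unadjusted p under 0.05 (3.25% of all genes) and 9 without overlap (6.62% of all genes). The median log2 fold change was -0.85 and the smallest adjusted p 0.355 by edgeR, where DESeq2's Wald test called 3. *Ier2* was at 17.2, 23.3 and 18.4 CPM in WT livers and at 10.4, 12.7 and 11.01 CPM under the KO label. *Jun*, an AP-1 subunit, was at 10.9, 44.9 and 18.3 CPM against 5.45, 8.64 and 7.05 CPM. *Egr1* was at 19.3, 31.8 and 5.31 CPM against 3.42, 5.21 and 5.25 CPM, where WT replicate 3 lay close to the KO label. *Junb*, named after its values were seen, was at 21.2, 173 and 30.4 CPM against 17.2, 13.5 and 16.5 CPM. Without WT replicate 2 the median was -0.42, 6 genes were lower and 1 was higher at an unadjusted p under 0.05, so the direction held for part of the list in the other 5 livers.

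Stellate cells are the vitamin A storing pericytes of the sinusoid and the main collagen source of the liver. Of 13 tested stellate cell markers, 12 were higher under the KO label, 7 at an unadjusted p under 0.05 (4.31% of all genes) and 5 without overlap (7.36% of all genes), with a median log2 fold change of 0.46. Their summed level was 279, 284 and 323 CPM in WT livers and 358, 488 and 412 CPM under the KO label. *Col3a1*, a fibrillar collagen, was at 4.77, 4.19 and 7.76 CPM against 9.94, 32.1 and 18.1 CPM, with the highest value in KO replicate 2. *Dcn*, the proteoglycan decorin, was at 79.6, 79.0 and 89.4 CPM against 104, 138 and 151 CPM, and *Col1a2*, a chain of type I collagen, at 4.88, 4.85 and 7.35 CPM against 7.51, 22.3 and 12.5 CPM. None passed the adjustment with edgeR (smallest adjusted p = 0.468), DESeq2's Wald test called 3, and 4 to 8 had an unadjusted p under 0.05 when 1 liver was left out. Fewer or more stellate cells and less or more matrix RNA per cell cannot be told apart.

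Among the genes named by smallest p, *Postn* and *Col4a2* also encode matrix proteins. *Postn*, the matricellular protein periostin, was at 2.60, 2.58 and 2.29979 CPM in WT livers and at 6.87, 6.68 and 7.11 CPM under the KO label, a log2 fold change of 1.46 (SE 0.16, adjusted p = 0.0718 by edgeR's quasi-likelihood test). *Col4a2*, a basement membrane collagen, was at 13.7, 11.9 and 11.9 CPM against 22.7, 29.3 and 20.8 CPM. Sinusoidal endothelial markers summed to 240 to 307 CPM in WT livers and 301 to 315 CPM under the KO label, and cholangiocyte markers to 22.1 to 28.5 CPM against 28.8 to 35.1 CPM. Of the sinusoidal markers 7 of 10 were higher (median log2 fold change 0.20), and of the cholangiocyte markers 3 of 7 (median -0.11). Their part in the collagen values was not tested.

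**Figure D3:**
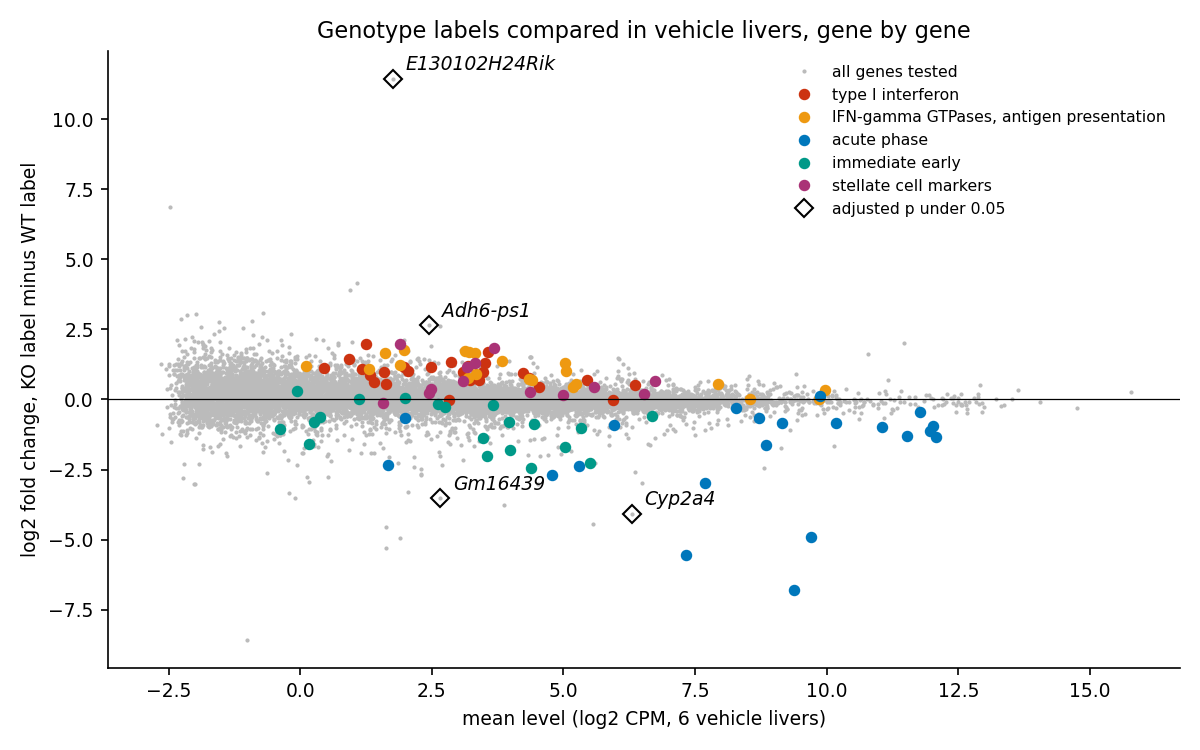
Log2 fold change (KO label minus WT label) against mean level (log2 CPM over 6 vehicle livers) of every gene tested, with 5 gene lists in colour and open diamonds on the 4 genes that passed the adjusted threshold. Of the type I interferon genes 24 of 26 lie above 0, and the acute phase genes that lie far below 0 are those raised in WT replicate 2.

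The other genes were named by smallest p among genes without overlap, since too few passed the adjustment, and were of several kinds. Higher under the KO label without overlap were *Dgkh*, a diacylglycerol kinase (1.59, 1.49 and 2.00 CPM against 4.95, 5.42 and 5.09 CPM), and *Nr3c2*, the mineralocorticoid receptor (6.11, 5.51 and 6.94 CPM against 15.1, 10.9 and 12.0 CPM). The noncoding gene *Gm32643*, which overlaps *Nrp1*, was at 12.0, 11.9 and 11.4 CPM against 19.9, 23.8 and 22.9 CPM. Lower under the KO label were *Lonrf3*, a RING finger gene (11.5, 10.5 and 12.1 CPM against 4.67, 4.94 and 3.38 CPM), and *Map3k5*, the stress kinase ASK1 upstream of JNK and p38 (93.6, 79.7 and 93.6 CPM against 38.2, 50.5 and 46.5 CPM). *Arhgef10*, a guanine nucleotide exchange factor gene, was at 6.34, 4.17 and 7.21 CPM against 2.28, 2.08 and 1.84 CPM. The noncoding gene *Gm38596* was at 2.96, 2.87 and 4.56 CPM against 0.91, 0.71 and 1.15 CPM. The adjusted p of these 7 genes lay between 0.0940 and 0.217 by edgeR.

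Several of the lower genes named by smallest p, again among genes without overlap, were pseudogenes. *Rps2-ps8* (9.27, 12.2 and 8.61 CPM against 4.02, 4.66 and 4.34 CPM), *Rps2-ps6* (14.3, 19.1 and 13.7 CPM against 7.55, 8.57 and 8.22 CPM), *Gm6139* (14.4, 19.2 and 13.2 CPM against 7.08, 8.26 and 7.44 CPM) and *Gm6311* (15.8, 20.9 and 14.5 CPM against 8.13, 9.31 and 8.56 CPM) separated the labels. *Gm6139*, *Gm6311* and *Rps2-ps6* are close copies of *Rps2*, the gene of ribosomal protein S2. *Gm9825*, a copy of the splicing factor gene *Rnps1*, was at 11.7, 15.5 and 12.0 CPM against 5.54, 6.74 and 6.42 CPM. *Rps2* itself was at 328, 380 and 297 CPM in WT livers and at 281, 331 and 286 CPM under the KO label and did not separate the labels (log2 fold change -0.16, adjusted p = 0.834 by edgeR). A group was formed after these values were seen, of the 22 tested genes that share at least 200 bases at 95% identity with *Rps2*. All 22 were lower, 15 at an unadjusted p under 0.05 (3.25% of all genes), with a median log2 fold change of -0.86. The copies share reads with each other and with *Rps2*, so they are not independent of each other and their values cannot be assigned to single loci.

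The genes around *Gna12* were examined because the flanks of a targeted gene are inherited together with it. Within 10 Mb of *Gna12* on chromosome 5, 226 genes were tested, 0 passed the adjustment and 15 (6.64%) had an unadjusted p under 0.05, 8 higher and 7 lower, beside 4.31% and 3.25% of all genes. In windows of 5 Mb and 20 Mb the shares were 7.95% and 7.71%. *Mmd2*, a progestin and adipoQ receptor family gene, was at 0.70, 0.52 and 1.06 CPM in WT livers and at 1.31, 3.53 and 4.64 CPM under the KO label. *Ephb4*, an ephrin receptor of venous endothelium, was at 27.0, 17.3 and 23.6 CPM against 34.0, 38.8 and 36.2 CPM. The zinc finger gene *Zfp157* was at 4.71, 4.33 and 4.97 CPM against 2.79, 3.24 and 2.88 CPM. *A430033K04Rik* was at 4.90, 5.01 and 4.64 CPM against 2.14, 1.91 and 3.21 CPM, and *Gm6433*, another *Rps2* copy, at 1.66, 2.15 and 1.36 CPM against 0.76, 1.03 and 0.74 CPM. These 5 genes, taken by smallest p, separated the labels. In the 10 Mb window 30 genes (13.3%) did so, beside 7.36% higher and 6.62% lower of all genes. So the share near *Gna12* was close to that of the genome by either count.

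Few components of the pathway that *Gna12* belongs to had an unadjusted p under 0.05. Of 11 tested G protein alpha subunits, 0 had an unadjusted p under 0.05, and *Gna13*, the other member of the class, was at 28.1, 24.3 and 25.6 CPM in WT livers and at 26.2, 24.6 and 21.3 CPM under the KO label. Of 15 receptors of the class and their exchange factors, 12 were higher, and 1 of them had an unadjusted p under 0.05, the sphingosine-1-phosphate receptor gene *S1pr3* (1.11, 0.89 and 1.26 CPM against 2.03, 2.00 and 1.78 CPM). *Agtr1a*, an angiotensin receptor gene, was at 35.3, 26.0 and 44.7 CPM against 47.0, 45.1 and 49.7 CPM. Of 15 SRF and YAP target genes, 2 were higher and 0 lower at that level (4.31% and 3.25% of all genes), *Thbs1* (0.46, 0.25 and 0.16 CPM against 0.33, 1.45 and 0.69 CPM) and *Ccn1* (1.31, 1.26 and 2.29979 CPM against 3.21, 3.19 and 1.95 CPM), both with overlap. *Ccn2* was at 9.46, 2.85 and 4.68 CPM against 12.9, 11.9 and 8.00 CPM. The medians of these 3 lists were 0.01, 0.19 and 0.20.

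Of 26 tested genes that the study named, 0 had an unadjusted p under 0.05. The kinase genes *Rock1* (22.9, 24.4 and 23.2 CPM against 25.7, 23.1 and 27.7 CPM) and *Rock2* (21.4, 22.1 and 22.4 CPM against 30.6, 22.8 and 22.8 CPM) had log2 fold changes of 0.12 (SE 0.12) and 0.21 (SE 0.15). *Gpx4*, which reduces lipid hydroperoxides and restrains ferroptosis, was at 170, 200 and 200 CPM in WT livers and at 180, 191 and 186 CPM under the KO label (log2 fold change -0.03, SE 0.13). The lipoxygenase gene *Alox12* was near the limit of detection, at 0.17, 0.56 and 0.41 CPM against 0.33, 0.34 and 0.43 CPM (log2 fold change -0.03, SE 0.48). The adjusted p of these 4 genes was 0.768 to 0.991 by edgeR's quasi-likelihood test.

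Metabolic and stress pathways of the hepatocyte were counted at an unadjusted p under 0.05, where 4.31% of all genes were higher and 3.25% lower. Counting those higher and those lower under the KO label, there were 0 and 1 of 31 PPAR-alpha fatty acid oxidation genes, 0 and 0 of 16 fatty acid synthesis genes, 2 and 1 of 17 elongation and desaturation genes and 1 and 0 of 24 cholesterol genes. There were 0 and 1 of 16 gluconeogenesis and fasting genes, 0 and 0 of 19 unfolded protein response genes, 1 and 3 of 14 integrated stress response genes and 1 and 0 of 17 NRF2 targets. Acetaminophen metabolism had 1 and 1 of 21, ferroptosis and lipoxygenases 1 and 1 of 20, superoxide generation 1 and 0 of 15, p53 targets 2 and 1 of 11 and cytosolic heat shock proteins 0 and 0 of 14. Metallothioneins and zinc transporters had 0 and 0 of 8, iron and heme handling 1 and 2 of 15, pericentral and Wnt targets 1 and 0 of 17, periportal and urea cycle genes 0 and 1 of 16, and mitochondrially encoded transcripts 0 and 0 of 13. In the unfolded protein response list 17 of 19 genes were higher, with a median of 0.17. *Fgf21*, a fasting hormone gene, was at 7.24, 7.66 and 16.2 CPM in WT livers and at 3.16, 4.29 and 6.53 CPM under the KO label, and *Igfbp1*, an insulin-repressed binding protein gene, at 114, 170 and 40.5 CPM against 17.9, 50.4 and 58.0 CPM.

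Several hepatocyte genes of bile acid handling and sex-biased expression separated the labels without passing the adjustment. Of 20 bile acid genes, 3 were higher and 0 lower at an unadjusted p under 0.05, beside 4.31% and 3.25% of all genes. Without overlap, 4 bile acid genes and 3 male-biased genes were higher, beside 7.36% of all genes. *Abcb11*, the bile salt export pump, was at 141, 143 and 166 CPM in WT livers and at 211, 241 and 249 CPM under the KO label. *Slco1b2*, a bile acid and drug uptake transporter, was at 696, 578 and 629 CPM against 934, 701 and 1015 CPM, and *Cyp7a1*, the rate-limiting enzyme of bile acid synthesis, at 69.6, 11.5 and 42.9 CPM against 119, 79.2 and 99.5 CPM. Of 18 male-biased liver genes, 3 were higher and 0 lower, among them the steroid dehydrogenase gene *Hsd3b5* (33.1, 28.4 and 38.3 CPM against 51.4, 75.7 and 59.3 CPM) and *Mup20*, a urinary protein gene (603, 1816 and 917 CPM against 2844, 3188 and 7612 CPM). Of 15 female-biased genes, 2 were higher and 1 lower, the last being *Cyp2a4*, the only list member that passed the adjustment. *Abcd2*, a peroxisomal fatty acid transporter gene of that list, ran the other way with overlap (1.09, 0.70 and 3.52 CPM against 23.9, 6.58 and 1.86 CPM).

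The next lists were counted at an unadjusted p under 0.05, where 4.31% of all genes were higher and 3.25% lower. Of 17 inducible cytochrome P450 genes, 1 was higher and 1 lower. *Cyp2b10*, the target of the nuclear receptor CAR, was at 1.40, 1.01 and 3.13 CPM in WT livers and at 0.40, 0.38 and 0 CPM under the KO label, and *Cyp1a1* at 0.83, 0.64 and 0.69 CPM against 0.90, 1.56 and 1.28 CPM. Of 19 clock genes, 0 were higher and 3 lower, among them *Bhlhe40* (66.2, 76.7 and 78.5 CPM against 53.2, 49.97 and 51.5 CPM) and *Nfil3*. Of 13 growth hormone and IGF axis genes, 1 was higher and 1 lower. Of 16 inflammatory response genes, 2 were higher and 2 lower, with *Cxcl10*, an interferon-induced chemokine gene, at 0.89, 1.20 and 0.53 CPM against 2.36, 1.58 and 2.12 CPM, and *Il1rn*, the interleukin-1 receptor antagonist, at 7.63, 4.97 and 9.38 CPM against 3.79, 2.48 and 2.90 CPM. Of 14 proliferation genes, 2 were higher and 0 lower. *Mki67* was at 0.24, 0.31 and 0.28 CPM against 2.29, 1.03 and 0.87 CPM, and *Cdk1* at 0.39, 0.76 and 0.73 CPM against 0.76, 1.39 and 1.496 CPM. *Ccnd1*, cyclin D1, was named after its values were seen, at 4.29, 4.44 and 8.63 CPM against 29.5, 16.7 and 13.4 CPM.

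**Figure D4:**
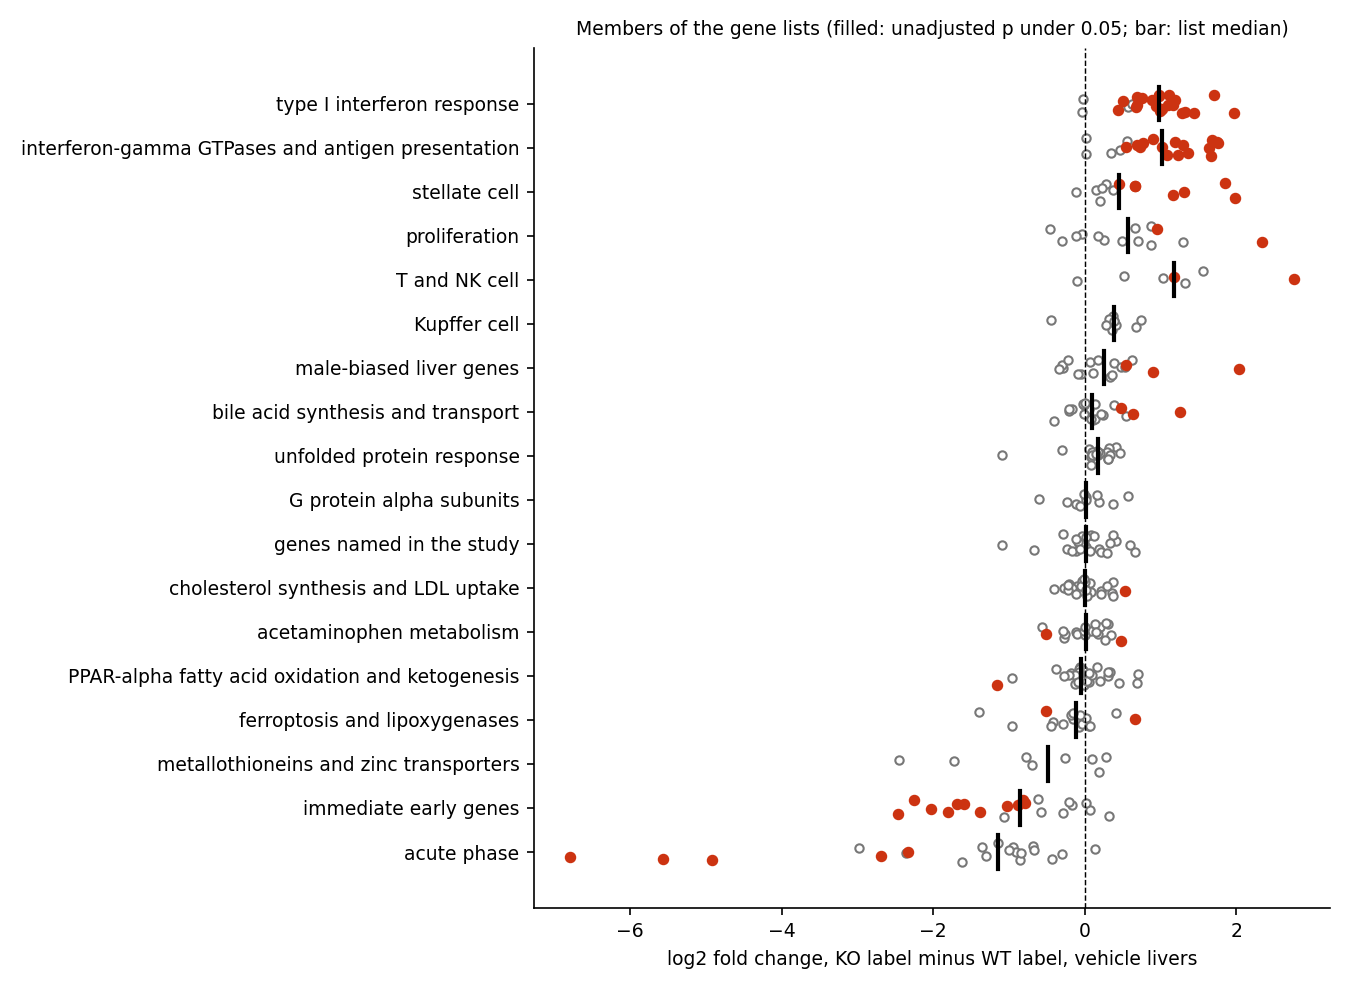
Log2 fold change (KO label minus WT label, vehicle livers) of each tested member of 18 gene lists, with filled points at an unadjusted p under 0.05, a bar at the list median and a dashed line at the median of all genes. The interferon lists lie to the right with medians of 0.98 and 1.02, the acute phase and immediate early lists to the left, and the metabolic lists around 0.

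Markers of blood and of other tissues were also summed. Of 5 tested erythroid markers, 4 were higher, 2 of them at an unadjusted p under 0.05 (4.31% of all genes) and 3 without overlap (7.36% of all genes). *Alas2*, the first enzyme of erythroid heme synthesis, was lower without overlap (6.62% of all genes). Erythroid markers summed to 328 to 347 CPM in WT livers and to 342 to 735 CPM under the KO label, where KO replicate 3 had the highest hemoglobin values (*Hbb-bs* 102, 88.1 and 99.1 CPM against 108, 121 and 254 CPM). *Hbb-bs* and *Hbb-bt* both separated the labels upwards. Platelet markers were at 3.03 to 3.99 CPM against 2.58 to 4.41 CPM. Pancreas markers were at 0.31 to 0.33 CPM against 0 to 0.61 CPM, with 13 of 14 at 0 counts in all 6 livers. Mesothelium markers were at 0.13 to 1.83 CPM against 0.28 to 1.22 CPM, adipose markers at 206 to 696 CPM against 371 to 560 CPM and skeletal muscle markers at 0.26 to 0.64 CPM against 0.37 to 0.53 CPM. Of the 7 adipose markers only 2 passed the expression filter, *Cidec* and *Car3*, and 3 had 0 counts in all 6 livers.

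The genotype comparison in the 6 APAP livers gave a separate reading of the same contrast in other animals. At an unadjusted p under 0.05, 166 of its genes (1.03%) were higher and 370 (2.29%) lower under the KO label. WT APAP replicate 1 had 238212 counts of the hemoglobin gene *Hba-a1*, where the other APAP livers had 2551 to 6815. Its *Gna12* level was 23.7 CPM on the scale of 12 livers, against 43.5 to 58.1 CPM in the others. The list values below include that liver and are not given without it. Of the 644 genes higher in vehicle livers at an unadjusted p under 0.05 and tested in both, 316 (49.1%) had the same sign in APAP livers, and of the 490 lower genes 320 (65.3%) did, where 49.6% of all 15000 genes tested in both had the same sign. Of 26 type I interferon genes, 21 had the same sign, 8 were higher and 0 lower at an unadjusted p under 0.05 in APAP livers, and the median was 0.48. Of the 21 interferon-gamma and antigen presentation genes, 11 had the same sign and 2 were higher, with a median of 0.07. For the stellate cell markers the APAP median was -0.21, and for the proliferation genes it was -0.55. Of 21 acute phase genes, 18 had the same sign in APAP livers and 4 were lower at an unadjusted p under 0.05, with a median of -0.47. The vehicle sign of these genes rested on WT vehicle replicate 2, without which their vehicle median was 0.29, so this agreement is not a repeat of a label difference. Of 18 male-biased genes, 14 were lower at that level in APAP livers and the median was -0.69, against 0.25 in vehicle livers.

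*Gbp6* (5.40, 6.28 and 8.41 CPM in WT APAP livers against 13.6, 11.02 and 10.4 CPM under the KO label), *Gbp10* (2.42, 3.24 and 4.33 CPM against 4.58, 6.22 and 4.78 CPM) and *Dgkh* (6.14, 2.40 and 3.05 CPM against 9.63, 7.26 and 10.2 CPM) separated the labels upwards in both treatments, on the scale of 12 livers. *Gm38596* (1.45, 2.299 and 2.26 CPM against 0.61, 0.72 and 0.46 CPM) and *Cyp2b10* (2.58, 3.20 and 5.87 CPM against 2.41, 1.85 and 1.37 CPM) did so downwards. In contrast, *H2-Ab1* was at 14.1, 8.88 and 4.80 CPM in WT APAP livers and at 5.40, 13.6 and 5.49 CPM under the KO label, and *Tgtp1* at 3.28, 1.97 and 1.99 CPM against 2.71, 3.71 and 2.70 CPM, both with overlap. None of these genes passed the adjustment in APAP livers. The genotype difference was compared between the treatments by an interaction term over 12 livers, and 0 of 16509 genes (0%) passed it by edgeR's quasi-likelihood test, with 848 at an unadjusted p under 0.05.

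**Figure D5:**
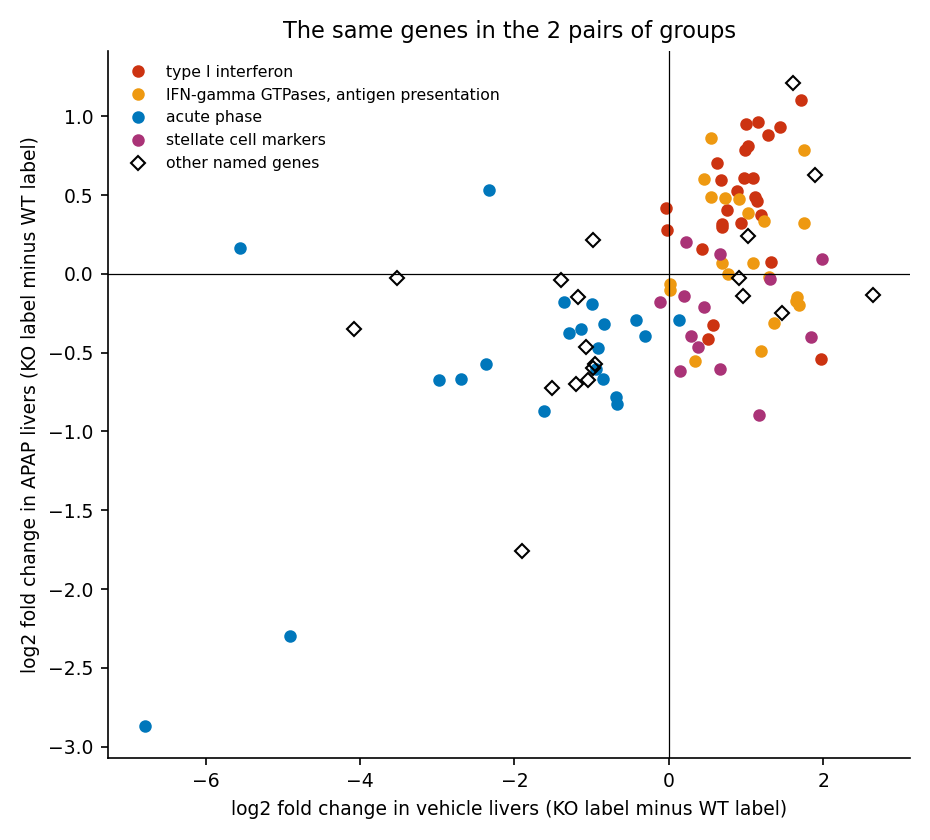
Log2 fold change (KO label minus WT label) in APAP livers against that in vehicle livers, for 4 gene lists and for the other named genes, with *E130102H24Rik* left out because its WT vehicle livers were at 0. Most type I interferon genes are above 0 on both axes, whereas *Adh6-ps1*, *Cyp2a4* and *Gm16439* lie near 0 on the APAP axis.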

How the data were processed

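Liver RNA of 12 mice was measured by poly-A RNA-seq, and the 6 vehicle livers were compared. As the authors deposited them, read counts are unnormalized integers per gene. The FPKM and TPM values deposited by the authors, scaled for length and depth, were used only for the TPM alternatives and gene levels. The submitters' processing notes name FastQC 0.11.7, Trimmomatic 0.38, HISAT2 2.1.0, Bowtie2 2.3.4.1 and StringTie 2.1.3b, with mm10 (GRCm38). The strand setting and the treatment of multimapping reads are not given in the sources used here.

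Counts were filtered with filterByExpr, scaled by TMM and tested with edgeR 4.0.16 (quasi-likelihood, R 4.3.3), with the Benjamini-Hochberg adjustment at 0.05. The study tested quantile-normalized log2 TPM, which was run as an alternative. Other alternatives were DESeq2 1.42.0, limma 3.58.1, other filters, a joint fit of all 12 livers, a block for replicate number and each liver left out. Of 45777 genes, 19370 had no counts, and 45679 were placed by RefSeq.

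The members, 34 pathway lists, 15 cell type lists and the list of genes the study named were chosen with earlier results of these data known. Named genes were *Gna12*, 12 in each direction with the largest difference among those passing (filled by smallest p) with a mean of at least 1 log2 CPM and no overlap, at most 3 per list by smallest p, 5 within 10 Mb of *Gna12*, and genes named in the study. Exceptions are marked, and some named genes and 1 list are not reported here. Transcript similarity came from BLAST 2.17.0 on GENCODE transcripts. The pipeline was tested on simulated data. A count of 0 was taken as at most 3 counts, and this floor covers counting error only. Replicates were separate livers, so p-values measure the spread between animals. Totals of 49737950 to 53487025 counts make 3 counts about 0.06 CPM.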

Additional observations from a re-analysis of the deposited data

Results flagged for a closer look

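For 3 genes that separated the labels in vehicle livers, the APAP livers separated in the opposite direction. The log2 genotype difference in APAP livers minus that in vehicle livers was -2.74 for *Mmd2*, -1.93 for *Cdk1* and -1.58 for *Hsd3b5*. On the scale of 12 livers, *Mmd2* was at 0.30, 0.32 and 0.30 CPM in WT APAP livers and at 0.17, 0.26 and 0.14 CPM under the KO label. *Cdk1* was at 0.83, 0.78 and 0.45 CPM against 0.24, 0.42 and 0.40 CPM, and *Hsd3b5* at 47.9, 43.8 and 49.8 CPM against 25.0, 39.6 and 24.3 CPM. The interaction term over 12 livers had unadjusted p-values of 0.00142, 0.00673 and 0.000206 and adjusted p-values of 0.872, 0.872 and 0.847 by edgeR's quasi-likelihood test, so none passed. They were picked out of 77 named genes without overlap in vehicle livers, of which 9 separated in the same direction in APAP livers. The share of all genes that separated in APAP livers was not counted, so these numbers have no background beside them. *Mmd2* was also near the limit of detection in APAP livers, where 3 counts are 0.04 to 0.06 CPM.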

How the results depend on the processing

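The 4 calls depended on the test. At an adjusted p of 0.05, DESeq2's Wald test called 75 genes higher and 62 lower under the KO label. There were 0 and 0 with all 12 livers in one edgeR fit (1049 at an unadjusted p under 0.05), 0 and 0 with an unmoderated test on quantile-normalized log2 TPM (986 unadjusted), and 1 higher with limma on that scale. With at least 10 counts in every liver 1 gene was higher, since *E130102H24Rik* was then not tested. Livers sharing a replicate number did not deviate together over all genes (correlations 0.043, -0.0064 and -0.056). These correlations showed no pairing by number, but they cannot exclude one for part of the genes. The fit with the replicate number as a block called 0 and 0 (1030 unadjusted) and gave *Alox12* a log2 fold change of 0.082. By the study's cut, the unmoderated test gave 78 genes higher and 68 lower and limma 178 and 125. *Gpx4* was at 0.027 on each of the 3 quantile TPM settings. Why these settings differ was not tested.

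Leaving out 1 liver at a time gave 0 to 7 genes higher and 0 to 9 lower at the adjusted threshold, and 200 to 413 lower by the study's cut. Genes without overlap numbered 1775 to 2226 higher and 1618 to 1859 lower, since fewer livers overlap less often. The log2 fold change of *Gna12* ranged from -0.042 to 0.36, *Alox12* from -0.39 to 0.36, *Gpx4* from -0.11 to 0.012, *Xbp1* from -1.45 to 0.0014, *Saa2* from -7.37 to 0.54, *Saa1* from -5.50 to 0.22, *Lcn2* from -6.65 to 1.56, *Cxcl1* from -5.02 to 0.59, *Mt1* from -2.31 to 0.66 and *Mt2* from -2.98 to 0.55. The median of the metallothionein list ranged from -0.68 to 0.19 and that of the B and plasma cell list from -0.060 to 0.64. For the *Rps2* copies, an alternative chosen after seeing the data, the direction held in each case. Depth limits genes near 0.06 CPM, the level of 3 counts.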

Other observations

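Several genes followed neither label alone, and all were picked after their values were seen (CPM on the scale of 12 livers). *Gdpd3*, a lysophospholipase D gene, was at 21.1, 0.38 and 0.22 CPM in WT vehicle livers and at 0.25, 0.19 and 0.24 CPM under the KO label. In APAP livers it was at 31.2, 16.1 and 16.6 CPM in WT and at 0.12, 0.19 and 0.17 CPM under the KO label. So 4 of 6 WT livers and 0 of 6 livers labelled KO had the high level. The pseudogene *Rpl34-ps1* was at 0.30, 0.38 and 25.9 CPM in WT vehicle livers and at 0.32, 26.6 and 42.2 CPM under the KO label, and after APAP at 0.81, 0.24 and 0.52 CPM against 28.6, 30.4 and 27.4 CPM. The pseudogene *Gm10154* had the same high and low livers, with 9.10 CPM in WT vehicle replicate 3 and 0.03 CPM in KO vehicle replicate 1.

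On distal chromosome 4, *Znf41-ps* was higher under the KO label in vehicle livers, with an adjusted p of 0.0940 by edgeR's quasi-likelihood test and a call by DESeq2's Wald test. It was at 0.58, 0.71 and 0.74 CPM against 2.67, 2.51 and 2.63 CPM, and after APAP at 0.52, 0.64 and 0.72 CPM against 1.08, 2.25 and 1.07 CPM. *Zfp991* was at 0.71, 0.57 and 0.58 CPM against 1.88, 2.12 and 2.67 CPM in vehicle livers, and after APAP at 0.32, 1.13 and 0.73 CPM against 0.96, 1.60 and 1.00 CPM with overlap. *Gabra3*, a GABA receptor subunit gene, had 0 counts in each vehicle liver labelled KO and was detected in 3 of 3 WT vehicle livers (1.28, 0.75 and 0.76 CPM). That is at least 15.95-fold lower under the KO label in vehicle livers, against a floor of 3 counts per liver. In the APAP livers it did not pass the expression filter, so the labels were not compared there.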
